A study of Mus musculus with 12 samples.

Results

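Proteasome genes were chosen by symbol alone, as those with a single gene symbol beginning Psma to Psmg and a number, with 2 interferon-inducible beta subunits left out. This gave 47 of the 22180 genes measured: 16 of the core particle, 17 of the regulatory particle, and 14 others, namely 5 genes of activators and an inhibitor, 7 of assembly chaperones and 2 that carry such a symbol without encoding a proteasome component. Psma4 was not analysed here because its 2 probe sets are each annotated with more than 1 gene. The rule itself uses no measured value, but it was written with earlier results of these data known.

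The proteasome is the protease complex that degrades ubiquitin-tagged proteins in the cytosol and nucleus. A barrel-shaped core particle of alpha and beta rings encloses the proteolytic sites. A regulatory particle, made of a base with an ATPase ring and a lid, binds the tagged substrate, removes the ubiquitin, unfolds the chain and threads it into the core. Alternative activators can cap the core in its place, and dedicated chaperones help to assemble both particles. In many mammalian cells the subunit genes are raised together by the transcription factor NRF1 (gene Nfe2l1) when proteasome activity falls short, and interferon induces a variant of the core with exchanged catalytic subunits.

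RNA came from primary smooth muscle cells of the aorta of C57BL/6J mice at passage 3 to 4, and it was hybridised to Affymetrix whole-transcript gene arrays. Primary cells were kept in DMEM with 10% fetal calf serum and glucose at 4.5 g/l, which is 25 mM, or at 0.3 g/l, which is 1.7 mM, with 6 arrays each, numbered as replicates 1 to 6; the series text gives 14 days for this and the sample labels 1 week. Effects of osmolarity were not analysed here. The labels do not say whether replicates came from separate cultures or mice, so the p-values rest on the spread between the samples alone, and that spread may be technical. All levels are log2 RMA values, and values of a group are given as the lowest, the median and the highest of its 6 arrays. Differences are 4.5 minus 0.3 g/l on the log2 scale with their standard error (SE), and a gene is said to fall or rise where its adjusted p in limma, corrected over all 22180 genes, is under 0.05.

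Smooth muscle markers were bright, with a mean over 6 markers of 11.03 to 11.23 in 4.5 g/l and 9.22 to 10.51 in 0.3 g/l. Endothelial markers were present too, at uneven levels: Cdh5 lay at 10.03, 10.46 and 11.04 in 4.5 g/l and at 10.31, 11.24 and 11.36 in 0.3 g/l. Of the 8 endothelial markers Emcn was the brightest and Kdr the dimmest, with means of 11.49 and 5.47 over the 12 arrays. Their differences ran from -0.59 (Cdh5) to 0.028 (Erg), and Emcn alone fell (-0.43, limma adjusted p = 0.0236). The mean of 8 endothelial markers split the 4.5 g/l arrays, replicates 1 to 3 having 8.23 to 8.31 and replicates 4 to 6 having 7.54 to 7.58. In 0.3 g/l it was 7.71 on replicate 4 and 8.21 to 8.30 on the rest. Macrophage and fibroblast markers averaged 4.81 to 5.17 and 4.87 to 5.35 in 4.5 g/l, against 4.88 to 5.22 and 4.99 to 5.24 in 0.3 g/l. Replicate 4 of the 0.3 g/l group stood apart from its group, with a smooth muscle mean of 10.51 against 9.22 to 9.50 in the rest, so results are also given without it. The part of these markers in the results was not tested. In such bulk RNA, fewer cells of a type and less RNA per cell cannot be told apart.

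Most genes of the core and regulatory particles differed little between the glucose concentrations. Of the 33 core and regulatory particle genes 2 fell in 4.5 g/l, the catalytic beta subunits Psmb5 and Psmb10, and 0 rose, a share of 6.06% against 15.5% of all genes (7.01% higher and 8.52% lower). The median difference was -0.035 over the core and -0.065 over the regulatory particle, against -0.0069 over all genes. These medians moved with the scaling, to -0.078, -0.11 and -0.051 after median centring and to -0.021, -0.038 and -0.014 after cyclic loess. Of all 47 genes 5 fell and 0 rose (10.6%), the other 3 being the activator Psme3, the assembly chaperone Psmg2 and Psme3ip1. The falls were of 1.19 to 1.31 times, and 40 of the 47 differences lay below 0, against 51.8% of differences over all genes. After cyclic loess scaling 33 lay below 0 and after median centring 44, where the share over all genes was not computed. The 95% interval of the difference stayed within a 1.2-fold change for 11 of 16 core genes and 12 of 17 regulatory genes. Over all genes the share was 31.5%. This share depends on the SE, whose median was 0.067 for the core, 0.062 for the regulatory particle and 0.093 over all genes. It was not computed for genes with a mean of at least 8. Bright genes were called more often, since 33.0% of the 4676 genes with a mean of at least 8 passed (a limit chosen after values were seen), where 4 of the 34 proteasome genes at that level did (11.8%). Without 0.3 g/l replicate 4, 13 of 47 fell and 0 rose (27.7%), against 23.9% of all genes called and 13.6% lower. Within replicates 1 to 3 alone 2 fell, Psmf1 and Psmg2, against 13.1% of all genes called.

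**Figure D1:**
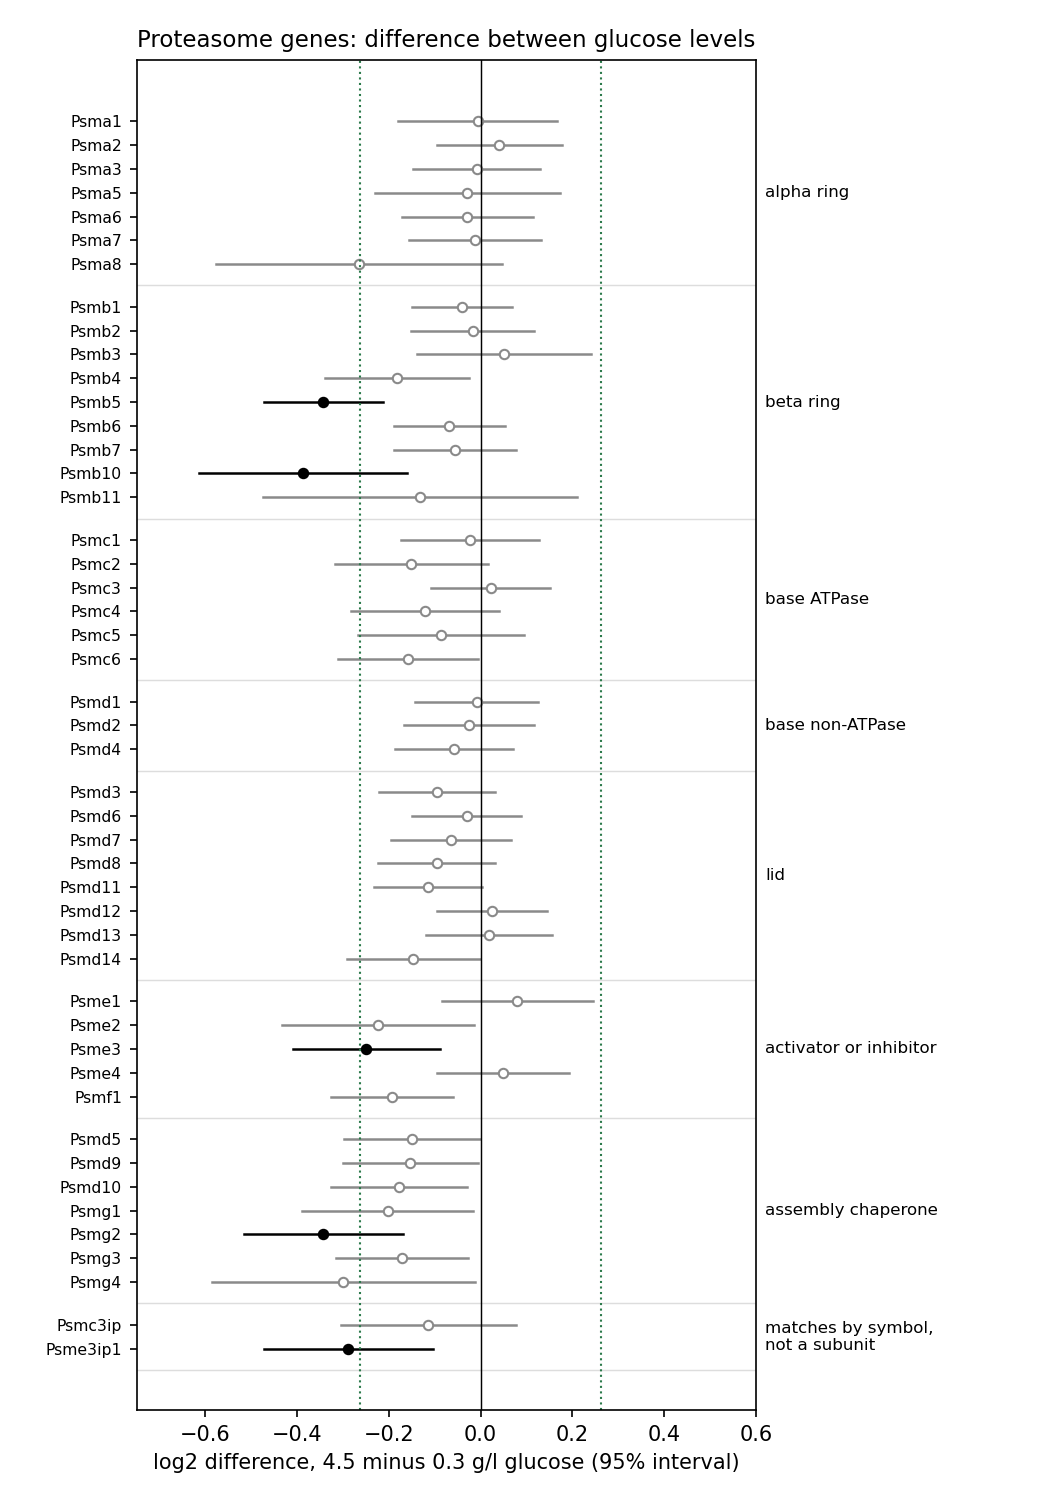
Log2 difference (4.5 minus 0.3 g/l glucose, x axis) with its 95% interval for the 47 proteasome genes, grouped by role; filled black points passed an adjusted p of 0.05 and dotted lines mark a 1.2-fold change. Most intervals of ring, base and lid genes cross 0, all 7 assembly chaperones lie left of it, and the filled points are Psmb5, Psmb10, Psme3, Psmg2 and Psme3ip1.

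In the alpha rings, which form the gate of the core particle, 0 of 7 measured genes passed and 0 had an unadjusted p under 0.05, in limma and in the exact rank-sum test alike. Psma7 lay at 9.19, 9.37 and 9.46 in 4.5 g/l and at 9.22, 9.38 and 9.45 in 0.3 g/l, a difference of -0.012 ± 0.067 (SE, limma adjusted p = 0.942). Psma1 lay at 8.58, 8.63 and 8.73 in 4.5 g/l and 8.32, 8.72 and 8.79 in 0.3 g/l (-0.0066 ± 0.080, limma adjusted p = 0.976). The ranges of the groups nearly coincided for Psma7, and for Psma1 that in 4.5 g/l lay inside that in 0.3 g/l. The 95% intervals of the difference were -0.16 to 0.13 and -0.18 to 0.17. Psma2 had 9.77, 9.80 and 10.02 in 4.5 g/l and 9.70, 9.80 and 9.89 in 0.3 g/l, and Psma6 8.53, 8.65 and 8.80 in 4.5 g/l and 8.59, 8.69 and 8.80 in 0.3 g/l. Neither passed (0.040 ± 0.063 and -0.029 ± 0.066, limma adjusted p = 0.758 and 0.841). Psma3 differed by -0.0087 ± 0.064. The testis form of the alpha subunits, Psma8, was dim at 4.30, 4.78 and 5.14 in 4.5 g/l and 4.74, 4.99 and 5.35 in 0.3 g/l. Its difference of -0.26 ± 0.15 had the smallest p of the ring but did not pass (limma adjusted p = 0.269). It was -0.030 within replicates 1 to 3 and -0.50 within replicates 4 to 6, and within the last without 0.3 g/l replicate 4 it was -0.61 and passed (limma adjusted p = 0.0278). Psma5 was read by a dim probe set too, with a mean of 4.58 over the 12 arrays, and differed by -0.029 ± 0.094, and its second probe set, with a mean of 3.63, differed by -0.26 ± 0.19.

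Among the beta rings, which carry the proteolytic sites, the catalytic Psmb5 fell. Psmb5, which encodes the chymotrypsin-like subunit, lay at 8.54, 8.57 and 8.70 in 4.5 g/l and at 8.80, 8.96 and 9.04 in 0.3 g/l (probe set 17306417). The groups did not overlap, as was so for 6.40% of all genes, and the 0.3 g/l arrays nearest to 4.5 g/l were replicates 1 and 4. Its difference was -0.34 ± 0.060 (SE, limma adjusted p = 0.00197), a level 1.27-fold lower in 4.5 g/l. It passed whichever single array was left out, with -0.37 without 0.3 g/l replicate 4. Within replicates 1 to 3 the difference was -0.33 and within replicates 4 to 6 -0.36, similar in size and not past the threshold (limma adjusted p = 0.0531 and 0.159). Within replicates 4 to 6 with 0.3 g/l replicate 4 left out it was -0.42 and passed (limma adjusted p = 0.0141).

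The other constitutive catalytic subunits did not pass. Psmb7, the trypsin-like subunit, lay at 10.04, 10.21 and 10.35 in 4.5 g/l and 10.17, 10.27 and 10.31 in 0.3 g/l, with a difference of -0.056 ± 0.062 (limma adjusted p = 0.636). Psmb6, the caspase-like subunit, differed by -0.068 ± 0.056 (limma adjusted p = 0.498). The intervals of both, -0.19 to 0.076 and -0.19 to 0.052, lay within a 1.2-fold change. Of the non-catalytic subunits, Psmb2 lay at 9.01, 9.12 and 9.24 in 4.5 g/l and 9.00, 9.18 and 9.24 in 0.3 g/l (-0.017 ± 0.063, limma adjusted p = 0.906). Psmb4 lay at 7.90, 8.07 and 8.23 in 4.5 g/l and 8.03, 8.30 and 8.39 in 0.3 g/l (-0.18 ± 0.073, limma adjusted p = 0.114), with overlapping groups. With 0.3 g/l replicate 4 left out Psmb4 passed, at -0.23 (limma adjusted p = 0.0162). Psmb1 and Psmb3 differed by -0.040 ± 0.051 and 0.051 ± 0.088. Psmb11, the thymus form of a catalytic subunit, was the one gene of the 47 with a mean among the dimmest 25% of all genes (3.82, below 4.20), and it differed by -0.13 ± 0.16.

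Psmb10, the interferon-inducible subunit that takes the place of Psmb7, fell as well. It lay at 6.72, 6.89 and 7.10 in 4.5 g/l and at 6.88, 7.38 and 7.46 in 0.3 g/l (probe set 17512554), a difference of -0.39 ± 0.11 (limma adjusted p = 0.0230). Here the groups overlapped through 0.3 g/l replicate 4, which lay at 6.88, and the remaining 0.3 g/l arrays spanned 7.19 to 7.46. In 4.5 g/l, replicates 4 to 6 lay at 6.72 to 6.82 and replicates 1 to 3 at 6.95 to 7.10. Replicates 4 to 6 of 4.5 g/l and replicate 4 of 0.3 g/l were also the arrays with the lower endothelial marker means given above, and the part of endothelial cells in the result was not tested. The call was close to the threshold: it was lost when any one of 4.5 g/l replicates 4, 5 and 6 or 0.3 g/l replicates 1, 2, 5 and 6 was left out (-0.38 to -0.35, limma adjusted p = 0.0508 to 0.0577). Without 0.3 g/l replicate 4 the difference was -0.47 (limma adjusted p = 0.00111), within replicates 1 to 3 -0.28 (0.0872) and within replicates 4 to 6 -0.50 (0.205). The last became -0.68 and passed when 0.3 g/l replicate 4 was also left out (limma adjusted p = 0.00359).

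**Figure D2:**
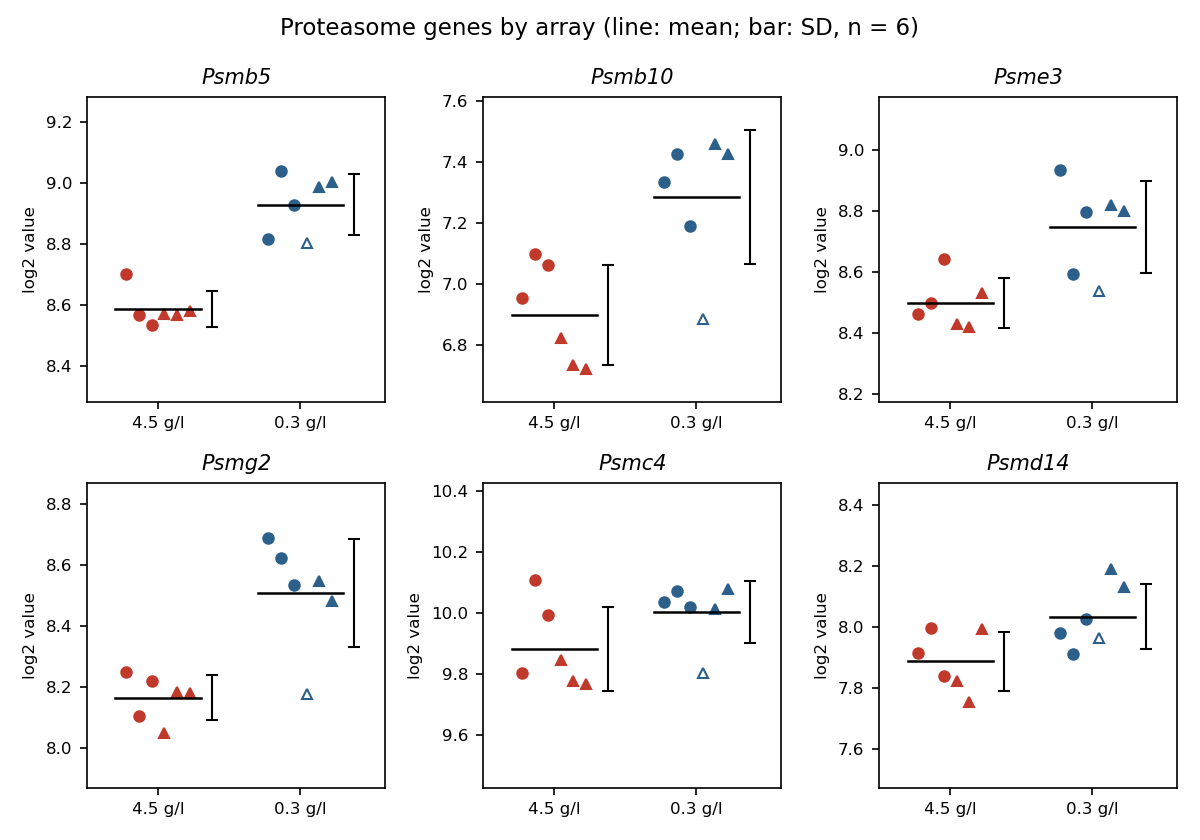
Log2 values (y axis) by array for 6 proteasome genes at 4.5 and 0.3 g/l glucose; circles are replicates 1 to 3, triangles replicates 4 to 6, the open triangle is 0.3 g/l replicate 4, lines are means and bars SD (n = 6). Psmb5 parts the groups fully, Psmb10 and Psmg2 do so apart from the open triangle, and the groups of Psme3, Psmc4 and Psmd14 overlap.

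Promoters of the members were searched for the core of the antioxidant response element, the site NRF1 binds with small Maf proteins. Of the 47 genes 39 matched a RefSeq promoter (43 windows, build GRCm38.p6), and the 250 bases before each start were searched on both strands for TGACNNNGC. It was present in 5 of the 43 windows (11.6%), against 10.2% of 32851 windows of all genes. A CCAAT box, which the factor NF-Y binds, was present in 15 of the 43 windows (34.9%), against 33.8% of all windows. The 5 stretches with TGACNNNGC are shown because they set a gene that fell (Psmb5) beside 4 that did not pass, with the match in capitals. They are followed by the 60 bases before the start of Psmb10 and Psme3, which both fell. No window of a member held both sequences. Psmb10 held neither, and the capitals in Psme3 mark a CCAAT box on the other strand. Each reads 5′ to 3′ on the gene's strand:
Psmb5 (chr14:54617996-54618055, minus strand): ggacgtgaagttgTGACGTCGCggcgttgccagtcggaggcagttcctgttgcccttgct
Psmb6 (chr11:70525297-70525356, plus strand): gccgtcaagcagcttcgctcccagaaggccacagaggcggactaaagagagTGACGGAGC
Psmd9 (chr5:123228130-123228189, plus strand): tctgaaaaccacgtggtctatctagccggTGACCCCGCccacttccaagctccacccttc
Psmc6 (chr14:45329574-45329633, plus strand): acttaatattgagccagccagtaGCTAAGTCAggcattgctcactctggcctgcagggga
Psmd12 (chr11:107479278-107479337, plus strand): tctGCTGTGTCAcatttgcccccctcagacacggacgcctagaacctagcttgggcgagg
Psmb10 (chr8:105938393-105938452, minus strand): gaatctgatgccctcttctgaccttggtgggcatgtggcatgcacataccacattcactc
Psme3 (chr11:101316153-101316212, plus strand): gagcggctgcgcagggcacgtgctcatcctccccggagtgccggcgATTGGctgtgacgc

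The match in Psmb5 begins 47 bases before the start, that in Psmb6 9, in Psmd9 31, in Psmc6 227 and in Psmd12 247, the last 2 read on the other strand. Differences of these 5 genes were -0.34 ± 0.060 for Psmb5, -0.068 ± 0.056 for Psmb6, -0.15 ± 0.069 for Psmd9, -0.16 ± 0.071 for Psmc6 and 0.026 ± 0.056 for Psmd12. Genes with these letters included the subunit with the smallest adjusted p and the lid gene with the highest difference. A match is only a likeness of letters, and no binding was measured.

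In the base of the regulatory particle, 0 of 6 ATPase genes passed in limma or in the exact rank-sum test, with 1 (Psmc6) at an unadjusted p under 0.05 in limma and 0 in the rank-sum test. These ATPases form the ring that unfolds the substrate. Psmc6 lay at 9.98, 10.05 and 10.17 in 4.5 g/l and 9.95, 10.25 and 10.33 in 0.3 g/l (-0.16 ± 0.071, limma adjusted p = 0.161). Psmc2 lay at 9.55, 9.65 and 9.76 in 4.5 g/l and 9.52, 9.80 and 9.98 in 0.3 g/l (-0.15 ± 0.077, limma adjusted p = 0.233), and Psmc4 at 9.77, 9.83 and 10.11 in 4.5 g/l and 9.80, 10.03 and 10.08 in 0.3 g/l (-0.12 ± 0.075, limma adjusted p = 0.335). In all 3 genes 0.3 g/l replicate 4 was the lowest array of its group and lay within the range of 4.5 g/l or below it, at 9.95, 9.52 and 9.80. The remaining arrays of 0.3 g/l had 10.18 to 10.33, 9.79 to 9.98 and 10.02 to 10.08. Without that array Psmc2, Psmc5 and Psmc6 fell (-0.21, -0.16 and -0.21, limma adjusted p = 0.0260, 0.0427 and 0.0111), so that 3 of 17 regulatory particle genes passed (17.6%), against 23.9% of all genes in the same fit. Psmc1, with the largest p of the ring, lay at 8.99, 9.14 and 9.41 in 4.5 g/l and 9.10, 9.17 and 9.29 in 0.3 g/l (-0.024 ± 0.070), while Psmc3 and Psmc5 differed by 0.022 ± 0.060 and -0.086 ± 0.084 with all 12 arrays. A second probe set of Psmc2, with a mean of 6.36, differed by -0.040 ± 0.13.

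Of the 3 non-ATPase genes of the base 0 passed in limma or in the exact rank-sum test, with 0 at an unadjusted p under 0.05 in either. The scaffold Psmd1 lay at 9.89, 10.02 and 10.18 in 4.5 g/l and 9.97, 10.03 and 10.06 in 0.3 g/l (-0.0084 ± 0.062, limma adjusted p = 0.958), and the scaffold Psmd2 at 9.81, 9.88 and 10.00 in 4.5 g/l and 9.73, 9.95 and 10.05 in 0.3 g/l (-0.025 ± 0.066, limma adjusted p = 0.864). Psmd4, the ubiquitin receptor of the base, lay at 8.49, 8.55 and 8.68 in 4.5 g/l and 8.47, 8.64 and 8.72 in 0.3 g/l (-0.057 ± 0.060, limma adjusted p = 0.616). The 3 intervals, -0.14 to 0.13, -0.17 to 0.12 and -0.19 to 0.071, all lay within a 1.2-fold change. Inside 4.5 g/l, Psmd1 was at 10.03 to 10.18 in replicates 1 to 3 and 9.89 to 10.00 in replicates 4 to 6, without overlap.

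Of the 8 lid genes chosen by symbol 0 passed in limma, with 1 at an unadjusted p under 0.05. In the exact rank-sum test 0 passed, with 3 at an unadjusted p under 0.05. Over all 22180 genes 6112 and 5314 had such an unadjusted p in limma and in the rank-sum test. Psmd14, the deubiquitinase of the lid, lay at 7.76, 7.88 and 8.00 in 4.5 g/l and 7.91, 8.00 and 8.19 in 0.3 g/l (-0.15 ± 0.068, limma adjusted p = 0.177). Psmd11 lay at 10.25, 10.34 and 10.37 in 4.5 g/l and 10.33, 10.45 and 10.53 in 0.3 g/l (-0.11 ± 0.054, limma adjusted p = 0.192). The groups overlapped in both, and the sizes were under 1.2-fold. Psmd3 lay at 8.17, 8.26 and 8.38 in 4.5 g/l and 8.28, 8.37 and 8.47 in 0.3 g/l (-0.10 ± 0.059, limma adjusted p = 0.338). Psmd13, with the largest p of the lid, lay at 8.34, 8.47 and 8.59 in 4.5 g/l and 8.30, 8.47 and 8.52 in 0.3 g/l (0.018 ± 0.064, limma adjusted p = 0.902). Of the 8 intervals 7 stayed within a 1.2-fold change, that of Psmd14 being the exception (-0.29 to -0.0013). The other 4 lid genes, Psmd6, Psmd7, Psmd8 and Psmd12, differed by -0.10 to 0.026. Sem1, a small lid subunit whose symbol lies outside the rule, is not among the 8. It fell (-0.25 ± 0.064, limma adjusted p = 0.0163) and is given below with the genes of other names.

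The alternative caps of the core behaved unevenly. Psme3, which forms the nuclear activator PA28 gamma, fell: it lay at 8.42, 8.48 and 8.64 in 4.5 g/l and 8.54, 8.80 and 8.94 in 0.3 g/l (-0.25 ± 0.075, limma adjusted p = 0.0364), 1.19-fold lower in 4.5 g/l. Its groups overlapped, and the call was lost on leaving out any one of 9 arrays (all but 4.5 g/l replicate 3 and 0.3 g/l replicates 2 and 4; -0.26 to -0.21, limma adjusted p = 0.0564 to 0.0864). Psme1 and Psme2 encode the alpha and beta chains of the interferon-inducible PA28 activator. Psme1 lay at 9.41, 9.55 and 9.63 in 4.5 g/l and 9.23, 9.50 and 9.66 in 0.3 g/l (0.080 ± 0.077, limma adjusted p = 0.574), the highest difference of the 47 genes. Psme2 lay at 6.35, 6.59 and 6.76 in 4.5 g/l and 6.54, 6.82 and 7.11 in 0.3 g/l (-0.22 ± 0.10, limma adjusted p = 0.152). Neither passed, and for both the highest array of the 12 was 0.3 g/l replicate 4, at 9.66 and 7.11. Psme4, the activator PA200, lay at 8.65, 8.82 and 8.97 in 4.5 g/l and 8.70, 8.78 and 8.84 in 0.3 g/l (0.049 ± 0.067, limma adjusted p = 0.715). Its 4.5 g/l arrays fell into replicates 1 to 3 with 8.65 to 8.75 and replicates 4 to 6 with 8.90 to 8.97.

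Psmf1, which encodes PI31, a protein that inhibits the core in vitro, was the other member whose groups did not overlap. It lay at 8.10, 8.24 and 8.33 in 4.5 g/l and 8.34, 8.44 and 8.49 in 0.3 g/l (-0.19 ± 0.062), and missed the threshold narrowly (limma adjusted p = 0.0502). It passed in the exact rank-sum test (adjusted p = 0.0338), and in limma on leaving out either of replicates 5 and 6 of 4.5 g/l, or 0.3 g/l replicate 4 (-0.21 to -0.18, limma adjusted p = 0.0478 to 0.0493). The size varied with the arrays: -0.30 within replicates 1 to 3 (limma adjusted p = 0.0410) and -0.087 within replicates 4 to 6 (0.683). In 4.5 g/l the first 3 replicates lay at 8.10 to 8.19 and the last 3 at 8.29 to 8.33.

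Assembly chaperones were all lower in 4.5 g/l by value, 7 of 7, with a median difference of -0.18. Of them 1 passed (14.3%, against 15.5% of all genes). All 7 had an unadjusted p under 0.05 in limma, where 6112 of the 22180 genes did, and 4 in the exact rank-sum test, where 5314 did. Psmg2, a chaperone of alpha-ring assembly that pairs with Psmg1, fell: it lay at 8.05, 8.18 and 8.25 in 4.5 g/l and 8.18, 8.54 and 8.69 in 0.3 g/l (probe set 17351485; -0.34 ± 0.081, limma adjusted p = 0.0108), 1.27-fold lower in 4.5 g/l. Only 0.3 g/l replicate 4, at 8.18, lay among the 4.5 g/l arrays. The call held whichever array was left out, and within replicates 1 to 3 the difference was -0.42 (limma adjusted p = 0.0138). Replicates 4 to 6 alone gave -0.26, short of the threshold (limma adjusted p = 0.337), and without 0.3 g/l replicate 4 there it was -0.38 and passed (limma adjusted p = 0.0340). A second, dim Psmg2 probe set with a mean of 3.18 differed by 0.11 ± 0.079, and averaging both ended the call (-0.12, limma adjusted p = 0.217). Its partner Psmg1 differed by -0.20 ± 0.087 (limma adjusted p = 0.143) and passed once 0.3 g/l replicate 4 was left out (-0.26, limma adjusted p = 0.0176).

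The chaperone pair Psmg3 and Psmg4 and the 3 base chaperones did not pass with 12 arrays. Psmg3 lay at 5.82, 5.98 and 6.04 in 4.5 g/l and 6.00, 6.09 and 6.32 in 0.3 g/l (-0.17 ± 0.067, limma adjusted p = 0.107). Psmg4 differed by -0.30 ± 0.13 (limma adjusted p = 0.161) and passed once 0.3 g/l replicate 4 was left out (-0.41, limma adjusted p = 0.0106); that array, at 4.96, was the lowest of the 12. Psmd10, also known as gankyrin, lay at 7.43, 7.60 and 7.74 in 4.5 g/l and 7.65, 7.72 and 7.90 in 0.3 g/l (-0.18 ± 0.069, limma adjusted p = 0.103). Leaving out 0.3 g/l replicate 4 took it past the threshold (-0.20, limma adjusted p = 0.0497). Psmd5 lay at 9.25, 9.38 and 9.50 in 4.5 g/l and 9.37, 9.54 and 9.70 in 0.3 g/l (-0.15 ± 0.069, limma adjusted p = 0.177), and Psmd9 differed by -0.15 ± 0.069. The per-array mean of the 7 genes was 7.19 to 7.28 in 4.5 g/l and 7.38 to 7.56 in 0.3 g/l apart from replicate 4, which lay at 7.22.

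Core and regulatory particles were set against each other on each array. Core means, with the dim Psma8 and Psmb11 included, were 7.94 to 8.07 in 4.5 g/l and 8.04 to 8.16 in 0.3 g/l. Without Psma8 and Psmb11 they were 8.48 to 8.60 in 4.5 g/l and 8.57 to 8.69 in 0.3 g/l. Regulatory means were 9.26 to 9.40 in 4.5 g/l and 9.29 to 9.48 in 0.3 g/l. The mean of all core genes minus the regulatory mean was -1.37 to -1.27 in 4.5 g/l and -1.33 to -1.25 in 0.3 g/l, so the ranges of the groups overlapped. For both particles the groups overlapped through 0.3 g/l replicate 4, at 8.04 and 9.29, and apart from it also for the regulatory particle, whose other 0.3 g/l arrays began at 9.36. That array was the lowest of its group in 24 of the 47 genes. It was the lowest of all 12 in 9, 6 of them regulatory particle genes. Over all 22180 genes it was the lowest of its group in 5933 and the lowest of all 12 in 2415.

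**Figure D3:**
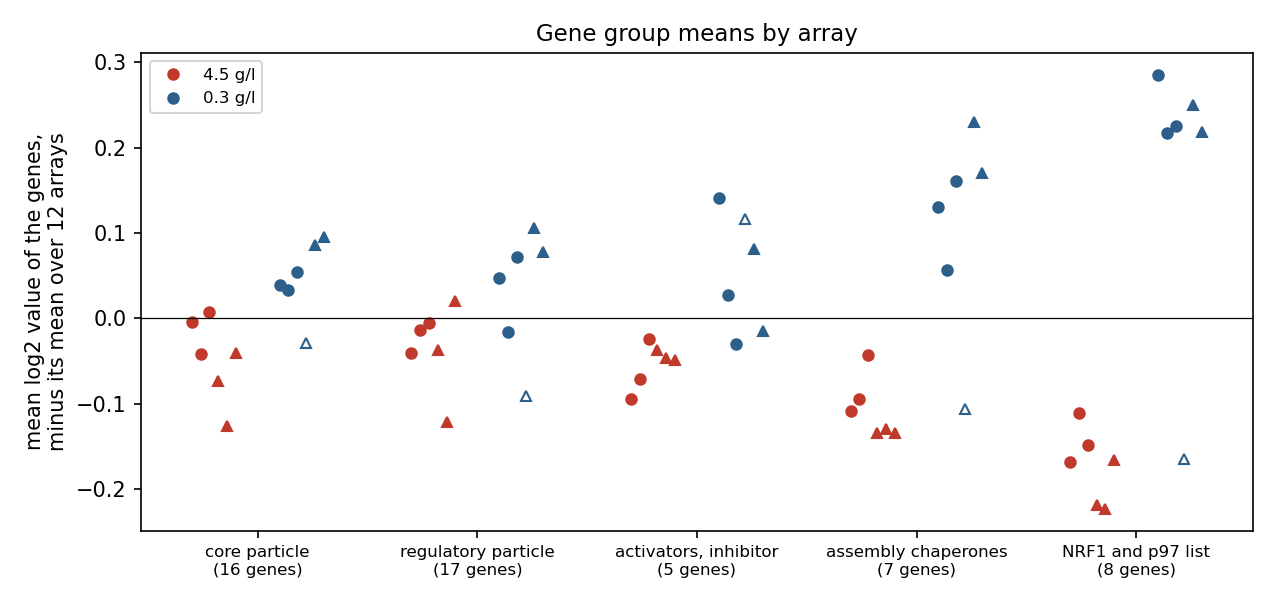
Mean log2 value of 5 gene groups on each array, minus its mean over the 12 arrays (y axis), with 4.5 g/l left of 0.3 g/l; circles are replicates 1 to 3, triangles replicates 4 to 6, and the open triangle is 0.3 g/l replicate 4. The groups lie closest for the 2 particles and farthest apart for the NRF1 and p97 list, whose mean includes Herpud1 with a difference of -1.34. The median difference of the genes was -0.20 in that list and -0.18 in the assembly chaperones. The open triangle lies among the 4.5 g/l arrays in each except the activators.

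Psme3ip1 and Psmc3ip carry the symbol but encode no proteasome component. Psme3ip1, a protein that binds PA28 gamma, lay at 9.10, 9.28 and 9.41 in 4.5 g/l and 9.25, 9.62 and 9.67 in 0.3 g/l and fell (-0.29 ± 0.085, limma adjusted p = 0.0348). Its call was lost on leaving out any one of 8 arrays (4.5 g/l replicates 1, 4 and 5 and 0.3 g/l replicates 1, 2, 3, 5 and 6; -0.29 to -0.25, limma adjusted p = 0.0565 to 0.0813). Psmc3ip, a factor of meiotic recombination, lay at 5.62, 5.72 and 5.92 in 4.5 g/l and 5.64, 5.84 and 6.16 in 0.3 g/l (-0.11 ± 0.088, limma adjusted p = 0.468).

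Among genes that supply, control or serve the proteasome, several fell. Of 30 listed genes of other names 21 were measured, of which 9 fell and 0 rose, or 8 and 1 after cyclic loess. The 9 that fell were 42.9%, against 15.5% of all genes and 33.0% of those with a mean of at least 8. The 21 had means of 7.69 to 10.77 and a median difference of -0.19. The list was chosen with earlier results of these data known, and its other 9 genes were not analysed here. In the list of NRF1, p97 and genes of protein degradation around them, 4 of 8 fell. Nfe2l1, which encodes NRF1 itself, lay at 8.88, 8.97 and 9.08 in 4.5 g/l and 8.99, 9.55 and 9.57 in 0.3 g/l (-0.48 ± 0.10, limma adjusted p = 0.00405), 1.40-fold lower in 4.5 g/l. Replicate 4 of 0.3 g/l, at 8.99, lay among the 4.5 g/l arrays, and the other 5 lay within 9.53 to 9.57; without it the difference was -0.58. Zfand2a, a stress-induced protein that binds the proteasome, lay at 9.23, 9.51 and 9.64 in 4.5 g/l and 9.52, 9.92 and 10.15 in 0.3 g/l (-0.43 ± 0.10, limma adjusted p = 0.0131). Herpud1, a membrane protein of endoplasmic reticulum degradation, lay at 9.87, 10.07 and 10.15 in 4.5 g/l and 10.22, 11.61 and 11.65 in 0.3 g/l (-1.34 ± 0.21, limma adjusted p = 0.000915). These 3 differences were all larger than that of any proteasome member. The p97 cofactor Ufd1 fell by 0.20 on the log2 scale, while p97 itself (Vcp), Nploc4, Zfand5 and Ngly1, which strips sugars from NRF1, differed by -0.030 ± 0.063, -0.19 ± 0.064, -0.19 ± 0.066 and 0.12 ± 0.092, and did not pass.

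Genes of other names for a subunit and for factors that act on the proteasome were also mixed. Sem1, a small lid subunit, lay at 10.33, 10.49 and 10.56 in 4.5 g/l and 10.58, 10.72 and 10.79 in 0.3 g/l without overlap (-0.25 ± 0.064, limma adjusted p = 0.0163). Within 4.5 g/l it was at 10.33 to 10.45 in replicates 1 to 3 and 10.53 to 10.56 in replicates 4 to 6, and its difference was -0.37 within the first and -0.13 within the last (limma adjusted p = 0.0186 and 0.538). Akirin2, needed to import proteasomes into the nucleus, lay at 9.43, 9.49 and 9.57 in 4.5 g/l and 9.71, 9.77 and 9.83 in 0.3 g/l, also without overlap (-0.28 ± 0.051, limma adjusted p = 0.00249). Pomp, the chaperone that completes the core, lay at 9.28, 9.30 and 9.50 in 4.5 g/l and 9.14, 9.33 and 9.50 in 0.3 g/l (-0.0058 ± 0.071, limma adjusted p = 0.976), and the scaffold Ecpas differed by -0.00069 ± 0.059; neither passed.

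Of 8 deubiquitinases, shuttle proteins and other proteasome-bound proteins 3 fell, all shuttles, which carry tagged substrates to the proteasome. That was 37.5%, against 15.5% of all genes and 33.0% of those with a mean of at least 8. A further shuttle, Ubqln1, did not pass (-0.11 ± 0.056, limma adjusted p = 0.210). Uchl5, Ube3c and Txnl1 differed by 0.057 ± 0.091, -0.18 ± 0.077 and -0.11 ± 0.052, and did not pass. Ubqln4 lay at 7.43, 7.52 and 7.59 in 4.5 g/l and 7.60, 7.90 and 8.07 in 0.3 g/l (-0.34 ± 0.076, limma adjusted p = 0.00746), without overlap. Rad23b lay at 10.13, 10.16 and 10.21 in 4.5 g/l and 10.22, 10.36 and 10.45 in 0.3 g/l (-0.19 ± 0.054, limma adjusted p = 0.0264), without overlap, and Ubqln2 at 7.92, 8.01 and 8.05 in 4.5 g/l and 8.00, 8.23 and 8.30 in 0.3 g/l (-0.21 ± 0.062, limma adjusted p = 0.0340). Single arrays decided the last 2 calls: Rad23b was lost on leaving out any one of 7 arrays (4.5 g/l replicates 1, 2 and 4 and 0.3 g/l replicates 2, 3, 5 and 6; limma adjusted p = 0.0509 to 0.0679) and Ubqln2 on leaving out any one of 10 (all but 4.5 g/l replicate 3 and 0.3 g/l replicate 4; limma adjusted p = 0.0531 to 0.0817). Both were also lost with the replicate number as a block (limma adjusted p = 0.0684 for Rad23b and 0.0776 for Ubqln2). Usp14, a deubiquitinase on the proteasome, ran the other way by value, with 8.77, 8.81 and 8.91 in 4.5 g/l and 8.59, 8.66 and 8.74 in 0.3 g/l and no overlap. It did not pass in limma (0.15 ± 0.052, limma adjusted p = 0.0686) but did in the exact rank-sum test (adjusted p = 0.0338), and in limma after cyclic loess, with trend and robust moderation, or without the lowest 25% of genes (0.15 to 0.18, limma adjusted p = 0.0256 to 0.0393). Uba6, a ubiquitin-activating enzyme, lay at 9.25, 9.27 and 9.36 in 4.5 g/l and 9.18, 9.22 and 9.27 in 0.3 g/l (0.070 ± 0.049, limma adjusted p = 0.416).

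**Figure D4:**
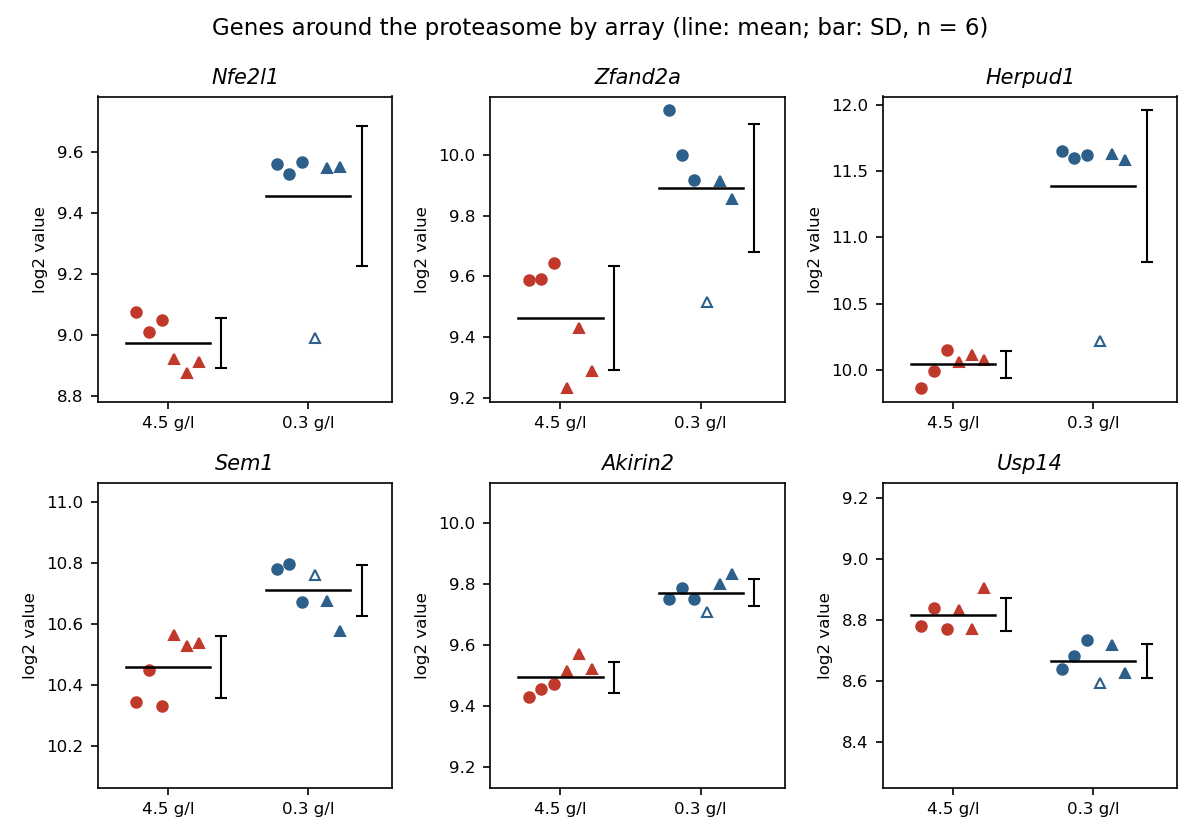
Log2 values (y axis) by array for 6 genes around the proteasome at 4.5 and 0.3 g/l glucose; circles are replicates 1 to 3, triangles replicates 4 to 6, the open triangle is 0.3 g/l replicate 4, lines are means and bars SD (n = 6). Nfe2l1 and Zfand2a part the groups apart from the open triangle, which in Herpud1 lies just above the 4.5 g/l arrays, Sem1 and Akirin2 part them fully, and Usp14 is higher in every 4.5 g/l array.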

How the data were processed

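The authors deposited 1 table of log2 values for 41345 probe sets on 12 arrays (0.60 to 13.90), made with Affymetrix Expression Console and RMA per the submitters' processing notes. Versions and a genome build are not given in the sources used here. Platform annotation names 1 symbol for 23521 probe sets, several for 1814 and none for 16010. Each of 22180 genes was read from its probe set with the highest mean, and 1082 genes had a choice. Groups were compared with limma 3.58.1 in R 4.3.3 on all genes and 12 arrays with the glucose group as the only term, eBayes moderation and Benjamini-Hochberg adjustment. It was tested on simulated data. An exact rank-sum test (smallest two-sided p 0.00216), other scalings, weights, blocks and left-out arrays were alternatives. Members and lists were chosen with earlier results of these data known. By a fixed rule, full values are given for the 3 genes with the smallest p in each role, the member with the largest p in each role, and a set of key subunits; all other members are given by their differences or the range of these. Psmc5, Psmg1 and Psmg4 are named because they passed without 0.3 g/l replicate 4. Promoter sequences are from RefSeq, build GRCm38.p6, and figures used matplotlib 3.10.9. No scan dates or detection calls were used, and precision is limited by how many arrays there are (median SE 0.093 over all genes).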

Additional observations from a re-analysis of the deposited data

Results flagged for a closer look

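Of 126 sets of 6 arrays looked at, 11 held an array that stood apart from the other 5 of its group by Dixon's criterion. For a single set chance gives about 1 in 20. The sets share the same 12 arrays, and the means repeat their genes, so the count of 11 cannot be judged by that rate. In 6 of the 11 the array was 0.3 g/l replicate 4. Herpud1 was at 10.22 there, against 11.58 to 11.65 on the other arrays of 0.3 g/l, and Nfe2l1 at 8.99 against 9.53 to 9.57. The mean of the 8 genes of the NRF1 and p97 list, Herpud1 and Nfe2l1 among them, was 9.69 on it, against 10.07 to 10.14 on the others. Psmc4 was at 9.80 on it against 10.02 to 10.08, Psmc5 at 7.80 against 8.15 to 8.34, and Psme3ip1 at 9.25 against 9.52 to 9.67. In 4.5 g/l, replicate 5 was low for Psmc3, at 8.02 against 8.20 to 8.30, and for Psmc5, at 7.98 against 8.08 to 8.13. Replicate 6 was high for Psma2, at 10.02 against 9.77 to 9.86, and for Pomp, at 9.50 against 9.28 to 9.33. Psmb5 was high on 4.5 g/l replicate 1, at 8.70 against 8.54 to 8.58, which is the array nearest to the 0.3 g/l group. No cause was tested for any of these.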

How the results depend on the processing

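No called result turned its sign. Counts of genes that fell were 2 for the core, 0 for the regulatory particle, 3 for the other members and 9 for the 21 listed pathway genes. The lid subunit Sem1 is counted in the pathway list. With array weights the regulatory particle had 3 and the other members 7, where 24.4% of all genes passed against 15.5% before. The exact rank-sum test gave 1 for the core (Psmb5) and 1 for the other members (Psmf1), where 8.99% of all genes passed. The pathway list had 6 lower and 1 higher in that test. Psmb10, Psme3, Psme3ip1 and Psmg2 did not pass it (rank-sum adjusted p = 0.0964, 0.0724, 0.0964 and 0.133). Nor did Nfe2l1, Zfand2a, Ufd1 and Ubqln2, each with a rank-sum adjusted p of 0.0964. Within replicates 1 to 3 the core had 0. Within replicates 4 to 6 the core, the other members and the pathway list had 0, where 30 of all genes passed, and without 0.3 g/l replicate 4 there the core had 3, the other members 5 and the pathway list 4, where 3435 of all genes passed (15.5%). Core medians were -0.090 and -0.085 in these 2 fits, and the regulatory median was -0.15 in the last. Leaving out that 1 array thus ended the counts of 0 there; for the other changes the cause was not tested. Leaving out 1 array at a time gave 1 to 3 for the core and 0 to 3 for the regulatory particle. For the other members it gave 1 to 7 and for the pathway list 6 to 12. In these fits 11.3% to 23.9% of all genes passed. The highest of each of these counts came without 0.3 g/l replicate 4, where 23.9% of all genes passed. Medians of the core and the regulatory particle were -0.053 to -0.027 and -0.088 to -0.051. Replicate numbers did not pair the arrays (correlations of deviations -0.046 to 0.17). With the replicate number as a block the other members had 1, since Psme3 and Psme3ip1 no longer passed (adjusted p 0.0568 and 0.0573), and the pathway list had 6, where 14.1% of all genes passed. Of the values of single genes under alternatives, 854 kept direction and side of the threshold, 69 no longer passed, 22 newly passed, and 44 that had not passed changed direction. The 6 arrays a group, 0.3 g/l replicate 4 and unknown culture origin limit all of these.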
